A study of Mus musculus with 26 samples.

Results

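The comparison described here set mouse induced pluripotent stem cells (iPSC) treated with activin A against untreated iPSC. It held 9 of the 26 samples of the series, chosen by their labels, and all 315 assay positions of the panel. The 4 treated samples came from 2 clones, with 2 samples each of clone 2 and clone 3. They had been taken off their feeder cells, seeded on gelatin and kept for 5 days in low-serum medium with 100 ng/ml activin A. The 5 untreated samples were 1 each of clones 1 to 5, and these were kept on growth-arrested mouse embryonic fibroblasts with leukemia inhibitory factor and serum replacement. All clones had been derived from tail-tip fibroblasts. Activin, feeder removal and the change of medium went together in the treated samples, so their effects cannot be told apart. The other groups of the series, used below only as reference points, were 2 lines of embryonic stem cells (ESC), D3 and R1, tail-tip fibroblasts, pancreatic islets and primary hepatocytes.

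Activin A is a ligand of the TGF-beta family. It binds activin receptors, which signal through Smad2 and Smad3, and at high dose in low serum it is used to direct pluripotent cells towards definitive endoderm, the germ layer that gives rise to liver and pancreas. MicroRNAs are short RNAs that base-pair with messenger RNAs and reduce their translation and stability, and mouse pluripotent cells are known for a few abundant miRNA clusters that are lost when cells differentiate. Each miRNA was measured by stem-loop RT-qPCR, and the value is the threshold cycle (Ct), the PCR cycle at which the signal crosses a threshold. A lower Ct means more RNA, and 1 cycle corresponds to a factor of 2 when amplification is complete. A Ct below 35 was taken as detection. The files name the assays by plate position (such as C61), not by miRNA, so no miRNA name or sequence is given for any position. The labelled cell types could therefore be checked only against the other groups of the series, and not against known marker miRNAs.

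The treated cells had a profile closer to those of ESC and untreated iPSC than to those of fibroblasts, islets or hepatocytes. Over the 284 tested assays (defined below), the Pearson correlation of a treated sample with the ESC mean was 0.791 to 0.918, and with the untreated iPSC mean it was 0.751 to 0.882. With fibroblasts it was 0.453 to 0.529, with islets 0.380 to 0.418, and with hepatocytes 0.272 to 0.358. The untreated clones had 0.894 to 0.947 with ESC, 0.493 to 0.580 with fibroblasts, 0.399 to 0.473 with islets and 0.357 to 0.455 with hepatocytes. With the mean of the remaining untreated clones they had 0.888 to 0.953. Every treated sample lay below every untreated clone in its correlation with untreated iPSC, with the nearest values at 0.882 and 0.888. By the median absolute difference from the same means the groups overlapped. It was 0.789 to 0.940 log2 units in the treated samples and 0.623 to 0.887 in the untreated clones. These are descriptions across assays, which share an RNA sample and, within a plate set, a reference. The lowest treated values with ESC and with iPSC were those of replicate 2 of clone 2. That sample also held a Ct of 2.82 at assay B26 and of 3.26 at B64, where the other 3 treated samples had 25.80 to 28.69 and 33.03 to 35.34.

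More assays reached detection in most treated samples than in most untreated clones, and the groups overlapped. The treated samples had 267 and 274 detected assays (clone 2) and 270 and 276 (clone 3), and the untreated clones 1 to 5 had 242, 275, 255, 257 and 258. Untreated clone 2 lay among the treated samples. The means were 271.8 ± 4.03 (SD, n = 4 samples of 2 clones) and 257.4 ± 11.8 (SD, n = 5), with an exact two-sided permutation p of 0.286 when each treated clone counted once. The smallest p this design allows is 0.0952, so no single-value test here could pass 0.05. Detection in all 9 samples was reached by 198 assays, and 17 were detected in none. One assay was detected in all 4 treated samples and in 0 untreated ones, and 0 assays showed the reverse. That assay was B17, with a Ct of 33.31 and 33.73 in treated clone 2 and 30.85 and 31.11 in treated clone 3. In the untreated clones B17 had no Ct in clone 1 and 36 to 37.02 in the other 4, and it was detected in 0 of 6 ESC samples and in 3 of 3 islet samples, at a mean Ct of 29.4. A90 and B56, which were detected in all treated samples and in 1 untreated clone each, stood near the limit. A90 had a Ct of 32.72 to 34.29 in the treated samples, against 33.12 in untreated clone 5. B56 had 32.40 to 34.59 in the treated samples, against 34.26 in untreated clone 1. Both were also detected in 3 of 3 islet samples, at a mean Ct of 29.7 (A90) and 27.8 (B56). All 3 assays are in the list of assays higher in islets than in ESC described below, which holds 55 of the 284 tested assays. They were picked for detection in at most 1 untreated clone, and ESC detected A90 and B56 in 1 of 6 samples each. Assays picked that way are not comparable with all 284, so their place in the list does not show a shift towards islets. Relative to the mean Ct, a reference described below, the groups overlapped at all 3 assays. Their log2 fold changes were 1.54 (B17), -0.21 (A90) and -0.02 (B56), with unadjusted limma p-values of 0.236, 0.783 and 0.982.

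The level of the panel as a whole was judged from the mean Ct of those assays that all 26 samples detected, taken separately for plates A and B, for plate C and for plate D. On plates A and B the mean Ct was 25.85 to 26.80 in the 4 treated samples, against 26.81 to 28.16 in the 5 untreated clones. Every treated sample had the lower value, with the nearest values at 26.80 and 26.81, and the group means differed by -1.21 cycles (exact two-sided permutation p 0.0952, 0.333 after adjustment over the 7 measures tested). The difference was -1.44 cycles on plate C (exact p 0.190) and -1.64 on plate D (exact p 0.286), where the groups overlapped. RNU6, the small nuclear RNA to which the authors normalized, was recovered from their fold changes up to a constant per plate set. It differed by 0.31 cycles on plates A and B, by 2.11 on plate C and by -1.34 on plate D, treated minus untreated (exact p 0.381, 0.286 and 0.0952). On plate C it stood at 8.22 cycles in replicate 1 of treated clone 3, against 0.38, -2.28 and -2.55 in the other treated samples and -2.40 to -0.18 in the untreated clones. Without that sample the difference on plate C was -0.58, and without replicate 1 of treated clone 2 the difference on plates A and B was -0.33.

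**Figure D1:**
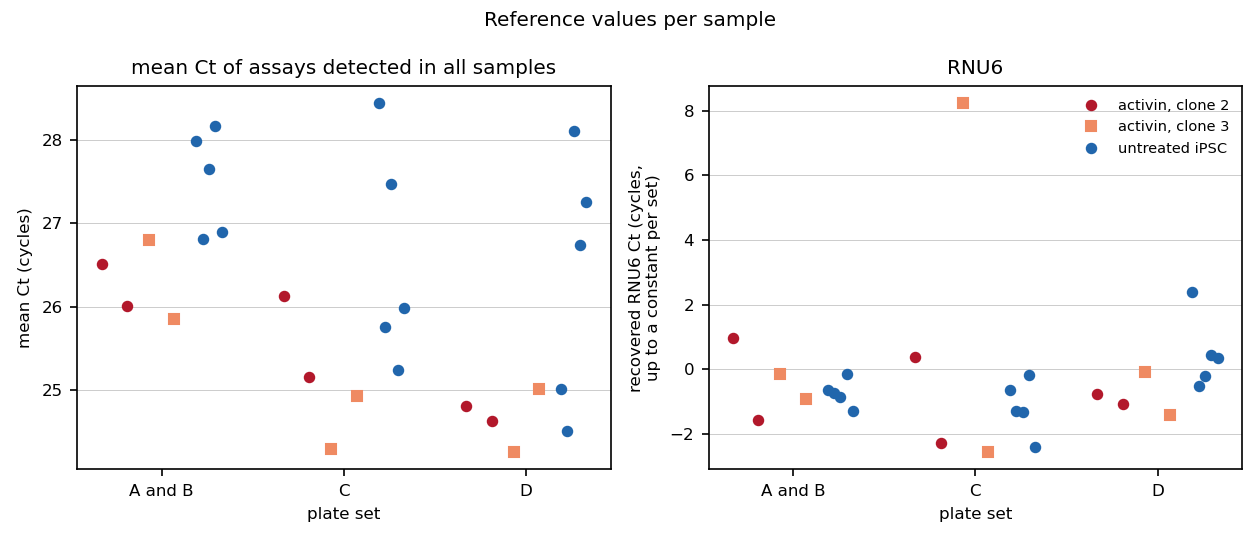
Mean Ct over assays that all 26 samples detected (left, in cycles) and the recovered RNU6 Ct (right, in cycles, up to a constant per plate set) in each activin-treated sample of clones 2 and 3 and each untreated iPSC clone, by plate set. Treated samples lie below all untreated clones in mean Ct on plates A and B, and 1 treated sample of clone 3 has an RNU6 of 8.22 on plate C.

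The fold change of an assay thus depended on the reference. Log2 fold changes are given as treated over untreated, where a positive value means more RNA in treated cells, and were tested by limma with each treated clone counted once. Assays entered the test if 50% or more of the treated or of the untreated samples detected them, and 284 of 315 did. Relative to RNU6, 253 assays were positive and 31 negative, with a median log2 fold change of 1.68. The median was 1.39 on plates A and B (181 assays), 3.77 on plate C (83) and -0.66 on plate D (20). Relative to the mean Ct, 131 were positive and 153 negative, with medians of -0.12, 0.21 and -0.96 on the same plates and -0.11 over all assays. The sign of the fold change differed between the references for 122 of the 284 assays. Within a plate set the fold changes under the 2 references differ by a constant, so an assay that stands out under both has not been measured independently.

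**Figure D2:**
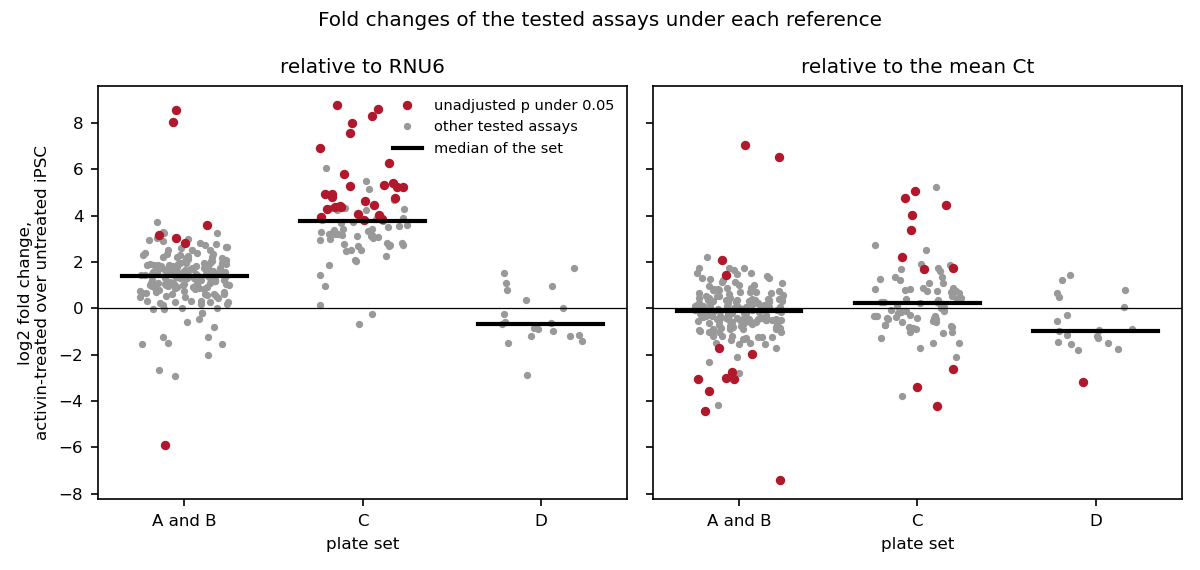
Log2 fold change of activin-treated over untreated iPSC for the 284 tested assays by plate set, relative to RNU6 (left) and to the mean Ct (right). Black lines are medians of a set and red points have an unadjusted limma p under 0.05. The median of plate C is 3.77 with RNU6 and 0.21 with the mean Ct.

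A single assay passed the threshold. Relative to the mean Ct, C61 rose, 1 of 284 assays tested (0.352%) at a Benjamini-Hochberg adjusted p under 0.05, and 0 fell. At an unadjusted p under 0.05 there were 25 assays (8.8%), of which 12 were higher (4.23%) and 13 lower (4.58%). Relative to RNU6, 0 assays (0%) passed the limma test after adjustment, with a smallest adjusted p of 0.0765. With RNU6, 35 assays (12.3%) had an unadjusted p under 0.05, of which 34 were higher (12%) and 1 lower (0.352%). This count of 35 ranged from 17 to 80 with 1 sample left out. Omitting the first sample of treated clone 3 gave 17, omitting its second sample gave 80, and omitting the second sample of treated clone 2 gave 72. Of the 34, 28 lay on plate C, the plate with the high RNU6 value. An unadjusted p under 0.05 with both references was reached by 11 assays higher in treated cells (B26, B64, B84, C14, C29, C61, C65, C67, C72, C84 and C93) and by 1 lower (B95). Of these, B26, B64 and C84 contain single treated Ct values of 2.82, 3.26 and 17.73 that lie far below their duplicates. The half-width of the 95% interval of a log2 fold change was 2.18 at the median with the mean Ct, and 3.47 with RNU6. For 40 assays the interval lay wholly between -2 and 2 with the mean Ct, and for 0 with RNU6.

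The 3 assays C61, C29 and C67 had lower Ct values in all 4 treated samples than in all 5 untreated clones. C61 had a Ct of 27.31 and 24.11 in treated clone 2 and 22.06 and 23.14 in treated clone 3, against 33.70, 29.39, 30.66, 30.08 and 29.50 in untreated clones 1 to 5. The groups stood apart, with 27.31 at the high end of the treated and 29.39 at the low end of the untreated values, and both treated clones were displaced in the same direction. C61 had a log2 fold change of 5.07 relative to the mean Ct (SE 1.10, 95% interval 2.78 to 7.35, limma adjusted p 0.0467). Against its own untreated sample, the difference was 3.57 in clone 2 and 5.21 in clone 3. Its fold change relative to RNU6 was 8.62, which did not pass (limma adjusted p 0.0765). The authors' deposited table holds the same value (8.62) by construction, since RNU6 was recovered from that table. The call at C61 ended when any 1 untreated clone was left out (limma adjusted p 0.0537 to 0.114), with replicate 2 of treated clone 2 left out (0.0735), with the mean Ct taken over all plates (0.105), without the detection filter (0.0502), and with clone as a replicate block (log2 fold change 4.39, adjusted p 0.386).

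C29 had a Ct of 25.35 and 22.58 in treated clone 2 and 20.58 and 21.44 in treated clone 3, against 31.22, 27.47, 29.58, 27.83 and 27.30 in untreated clones 1 to 5. The fit gave it 4.75 log2 units relative to the mean Ct (SE 1.14, limma adjusted p 0.0611), with 3.40 in clone 2 and 5.72 in clone 3. C67 had a Ct of 25.45 and 23.02 in treated clone 2 and 22.06 and 23.77 in treated clone 3, against 30.76, 30.14, 30.33, 27.91 and 25.99 in untreated clones 1 to 5. Its treated and untreated values came close to each other only at 25.45 and 25.99. The fit gave it 4.01 log2 units relative to the mean Ct (SE 1.17, limma adjusted p 0.0976), with 5.80 in clone 2 and 4.56 in clone 3. Neither assay passed the threshold in this fit. In the authors' deposited table, which holds untreated minus treated normalized Ct, C29 stands at 8.30 and C67 at 7.56, each meaning more RNA in treated cells. The fit relative to RNU6 gave the same values by construction. All 3 assays lie on plate C, and without the sample with the high RNU6 value their log2 fold changes relative to RNU6 were 5.66 (C61), 5.40 (C29) and 4.44 (C67). None of the 3 passed in that fit (limma adjusted p 0.338, 0.338 and 0.628).

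These 3 assays belong to those that the series detects almost only in pluripotent cells. C61 and C67 were detected in 6 of 6 ESC samples and in 0 of 11 samples of fibroblasts, islets and hepatocytes. C29 was detected in 6 of 6 ESC samples and in 1 of the 11 others, a hepatocyte sample. In ESC the mean Ct was 29.1 at C61 (28.2 to 30.2 over 6 samples), 27.2 at C29 (26.3 to 28.3) and 27.7 at C67 (26.1 to 29.3). The treated samples thus lay below the whole ESC range in raw Ct at each of the 3 assays, and the untreated clones lay in or above it apart from clone 5 at C67 (25.99). At C67 the nearest values were 25.45 (treated) and 26.1 (ESC). No reference was applied here, although the mean Ct of plate C differed by -1.44 cycles between treated and untreated samples. A difference of treated cells from ESC was not tested.

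**Figure D3:**
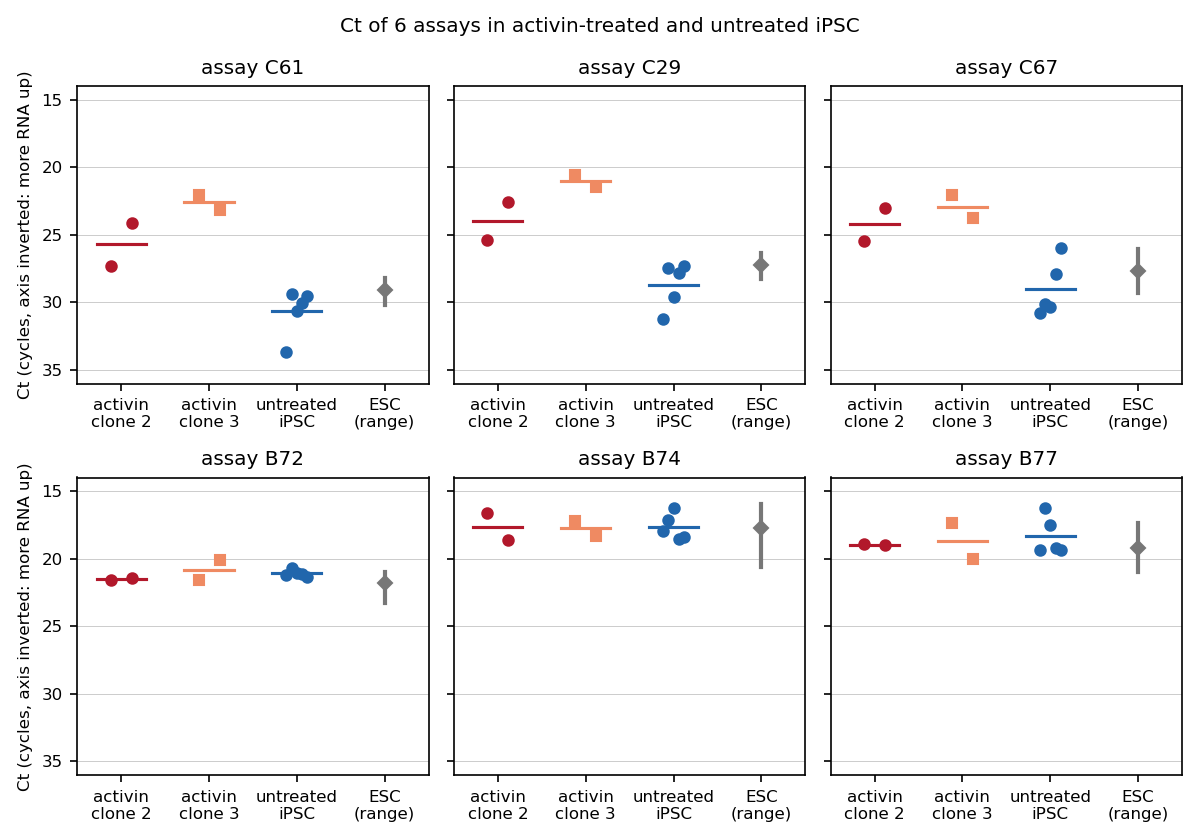
Ct in cycles (axis inverted, so that more RNA is higher) of 6 assays in activin-treated iPSC of clone 2 and clone 3, in untreated iPSC and in ESC. Points are samples, coloured lines are means, and the grey diamond and bar give the mean and range of the 6 ESC samples. At C61, C29 and C67 all treated samples lie above all untreated clones on this axis, and at B72, B74 and B77 the groups overlap.

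Detection in all 6 ESC samples and in at most 2 of the 11 differentiated samples was shared by 10 assays, a criterion chosen after the values were seen. They were B71, B72, B75, B77, C11, C13, C29, C61, C64 and C67. All 10 were detected in all 4 treated samples. Apart from C29, C61 and C67, the treated and untreated values of the other 7 overlapped in raw Ct and relative to the mean Ct. Their log2 fold changes relative to the mean Ct ran from -1.72 (B77) to 0.88 (C13), with unadjusted limma p-values of 0.159 to 0.909. The neighbouring positions B71 to B77 include some of the most abundant assays of these cells. B72 had a Ct of 21.60, 21.42, 21.56 and 20.12 in the treated samples, against 21.17, 20.66, 21.10, 21.15 and 21.35 in the untreated clones. B77 had 18.92, 19.02, 17.35 and 20.04 in the treated samples, against 19.34, 16.24, 17.49, 19.18 and 19.35 in the untreated clones. The raw Ct values of both overlapped between the groups, while the mean Ct of plates A and B was 1.21 cycles lower in treated cells. All 7 assays B71 to B77 had negative log2 fold changes relative to the mean Ct, from -1.72 (B77) to -0.22 (B76), and 6 of the 7 were positive relative to RNU6. Their unadjusted limma p-values relative to the mean Ct were 0.159 to 0.958. B74, with the lowest mean Ct of the treated samples among the tested assays (17.7 ± 0.933, SD, n = 4 samples of 2 clones), had 17.7 ± 0.968 in the untreated clones (SD, n = 5). B76 was split within both groups. It had 20.02, 19.20, 27.95 and 18.38 in the treated samples, against 18.37, 17.42, 17.07, 29.59 and 29.43 in the untreated clones.

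Other assays of plate C among those with higher values in treated cells were less even. C65 had 33.35, 28.44, 27.54 and 28.69 in the treated samples, against 37.91, 36, 34.03, 36.30 and 32.54 in untreated clones 1 to 5. Only 2 of the 5 untreated clones were below the limit of 35, and the groups overlapped through replicate 1 of treated clone 2. The fit relative to the mean Ct gave 3.36 (SE 1.49, limma adjusted p 0.493). C72 had 27.88, 27.77, 28.58 and 28.68 in the treated samples, against 37.03, 31.79, 32.28, 28.36 and 32.06 in untreated clones 1 to 5. The treated values were tight and the untreated ones spread over more than 8 cycles, and the fit gave 2.23 (SE 1.03, limma adjusted p 0.514). C14 had 25.30, 24.18, 21.04 and 22.37 in the treated samples, against 28.94, 26.09, 27.48, 24.98 and 24.50 in untreated clones 1 to 5, with a log2 fold change of 1.73 (SE 0.67, limma adjusted p 0.364). C68, detected in 2 of 5 untreated clones, had 34.78, 31.53, 27.17 and 28.72 in the treated samples. C88 varied from 15.04 to 21.07 in the treated samples, against 16.62 to 27.15 in the 4 untreated clones with a Ct, and its log2 fold change of 5.23 had an SE of 2.77 (limma adjusted p 0.737). Without untreated clone 4, which had no Ct, it was 2.48, and the clones' own differences were -3.91 in clone 2 and 2.93 in clone 3.

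Separation of all treated from all untreated samples was as frequent in both directions relative to the mean Ct, with 10 of 284 assays higher in treated cells (3.52%) and 10 lower (3.52%). The counts were 32 higher (11.3%) and 0 lower (0%) relative to RNU6, and 42 higher (14.8%) and 1 lower (0.352%) in raw Ct. Higher on all 3 scales were 9 assays (A73, B03, B05, B11, B22, B70, C29, C61 and C67). Among them B05 had a Ct of 24.65, 24.72, 24.11 and 22.82 in the treated samples, against 27.23, 26.32, 26.66, 27.21 and 26.20 in untreated clones 1 to 5. The fit relative to the mean Ct gave 1.44 (SE 0.59, limma adjusted p 0.396), and it was also detected in all fibroblast, islet and hepatocyte samples. A73 had 23.23, 22.84, 23.88 and 22.47 in the treated samples, against 25.99, 25.55, 25.25, 25.81 and 24.55 in the untreated clones, with a log2 fold change of 1.12 (SE 0.87).

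A79 was the 1 assay with less RNA in every treated sample on the raw Ct scale. It had a Ct of 27.90, 27.51, 28.72 and 27.49 in the treated samples, against 26.81, 26.59, 25.73, 27.40 and 23.77 in untreated clones 1 to 5. The gap between the groups was small, and untreated clone 5 was lowest in Ct. The fit relative to the mean Ct gave -3.06 (SE 0.86, limma adjusted p 0.0976), with -1.67 in clone 2 and -3.70 in clone 3. A86 had 29.97, 30.30, 27.22 and 26.71 in the treated samples, against 25.54, 25.69, 26.60, 27.41 and 25.82 in untreated clones 1 to 5. Its displacement was larger in clone 2 (-4.99) than in clone 3 (-1.69), and the fit gave -3.55 (SE 1.67, limma adjusted p 0.523). C86 had 28.47, 27.48, 25.34 and 25.25 in the treated samples, against 28.49, 24.53, 26.03, 23.18 and 25.12 in the untreated clones, with a log2 fold change of -2.61 (SE 0.87, limma adjusted p 0.196).

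Most of the other low fold changes involved treated samples without a detected Ct. Among the assays detected in all 5 untreated clones, the 10 with the lowest log2 fold changes relative to the mean Ct included 7 with at least 1 treated sample without a Ct below 35. B54, with a log2 fold change of -4.19 (SE 3.10, limma adjusted p 0.974), is not among these 10, since untreated clone 4 had no Ct. B54 had 27.17, 28.38, 26.55 and 24.45 in the treated samples, against 22.60, 14.66, 23.36 and 22.66 in untreated clones 1, 2, 3 and 5. A96 had 31.34, 28.11 and 28.77 in 3 treated samples and no Ct in replicate 2 of clone 3, against 26.63 to 29.26 in the untreated clones (log2 fold change -4.45, SE 1.31, limma adjusted p 0.0976, and -2.66 without that sample). Without replicate 1 of treated clone 3 the fold change of A96 was -6.25 and passed (limma adjusted p 0.0317). Clone 3 was then represented only by the sample without a Ct, so that size was set by the limit of 35. B49 had no Ct in replicate 1 of treated clone 2 and 27.56, 28.65 and 27.29 in the other treated samples, against 27.21 to 28.71 in the untreated clones (-3.06, SE 0.89, adjusted p 0.0976, and -1.33 without that sample). Apart from the missing value, the raw Ct of B49 overlapped between the groups. C95, D11 and A93 each lacked a Ct in replicate 1 of treated clone 3, and without that sample the log2 fold change was 0.14 for A93 and -0.996 for C95. A treated sample without a Ct below 35 although its duplicate was below 30 occurred at 10 assays, 3 and 1 in clone 2 and 5 and 1 in clone 3. Of these 10 assays, 9 were detected in all 5 untreated clones, and 4 are among those 10 lowest fold changes.

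Assays that set apart the other cell types had median fold changes near that of the whole panel. Relative to the mean Ct, 74 assays were higher in ESC than in fibroblasts by limma (adjusted p under 0.05 and at least 4-fold). Their median log2 fold change in treated over untreated iPSC was -0.09, against -0.11 over all 284 assays. C61, the 1 of all 284 assays that passed (0.352%), was a member. At an unadjusted p under 0.05, 5 of the 74 were higher and 3 lower, against 12 of 284 (4.23%) and 13 of 284 (4.58%) over all assays, and 34 were positive and 40 negative. For the 43 assays lower in ESC than in fibroblasts the median was -0.01, with 0 passing the limma test and 0 higher and 2 lower (B24 and B49) at an unadjusted p under 0.05, against 4.23% higher and 4.58% lower over all assays. The feeder cells, which were fibroblasts, were present only in the untreated cultures, and the part of feeder RNA in any result was not tested. For the 55 tested assays higher in islets than in ESC the median was -0.02, and for the 53 tested assays higher in hepatocytes it was -0.12. Neither list had a member that passed the limma test, and at an unadjusted p under 0.05 the first had 1 higher (B64) and 2 lower (B49 and B59) and the second 0 higher and 1 lower (B59). Several members of the hepatocyte list held a single hepatocyte Ct below 14, such as 3.74 at A64, 3.36 at D15 and 7.28 at A40. The list was not remade without such values. Relative to RNU6 the 4 medians were 1.69, 1.66, 1.75 and 1.62, against 1.68 over all assays.

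**Figure D4:**
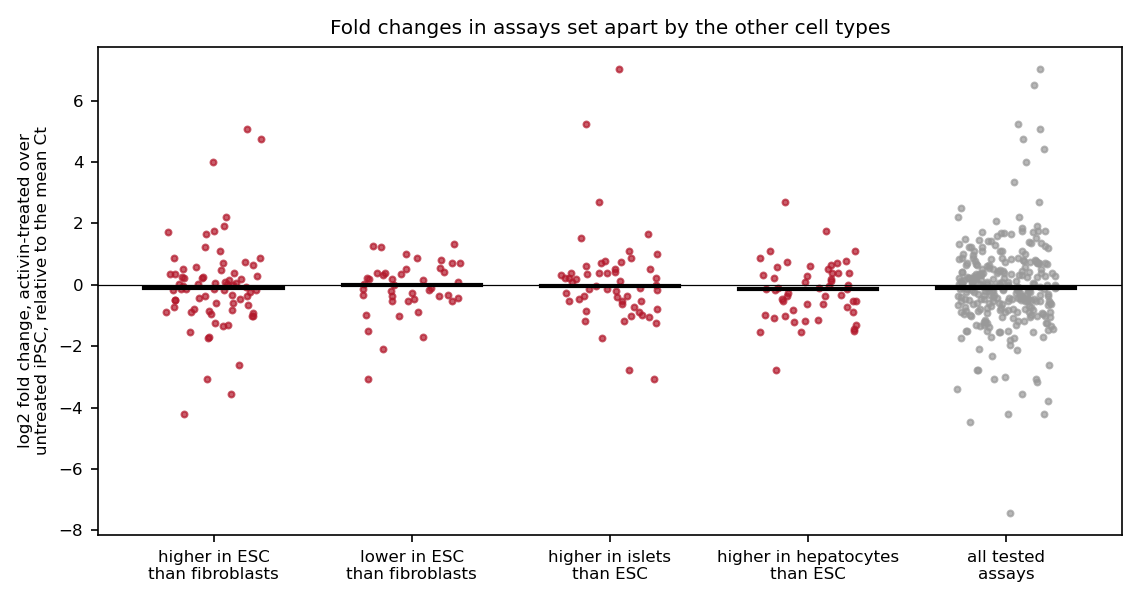
Log2 fold change of activin-treated over untreated iPSC relative to the mean Ct in 4 lists of assays that separate the other cell types, and in all 284 tested assays. Each point is an assay and black lines are medians, which lie between -0.12 and -0.01.

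The assays lower in ESC than in fibroblasts lay on opposite sides of 0 in the 2 clones when each was set against its own untreated sample, a difference that was not tested. Their median was -0.83 in clone 2 and 0.78 in clone 3, whereas over all tested assays it was -0.07 and -0.31. For the 24 of them that differed at least 16-fold the medians were -1.58 and 1.25. Each clone has 1 untreated sample, so these differences have no replicate check on that side. Over the 198 assays detected in all 9 samples, the responses of the 2 clones had the same sign in 86 (43.4%), with a Pearson correlation of 0.223 across assays. Both clones were above 2 in A87, B16, C29, C61 and C67, both were below -2 in B29, B50, B76, B77, C77 and C86, and 2 assays passed 2 in opposite directions. At C77 the duplicates of treated clone 3 had a Ct of 17.19 and 31.75, against 17.42 to 21.37 in the untreated clones. At B76 they had 27.95 and 18.38. The clone 3 values of these 2 assays thus rest on duplicates that lie far apart. Above 2 were 15 assays in clone 2 and 16 in clone 3, and below -2 were 16 and 15. The duplicates of a treated clone differed by a median of 0.582 (clone 2) and 0.688 log2 units (clone 3) over these 198 assays. Untreated clones, as single samples, differed by a median of 0.807 (0.609 to 1.09 over pairs). The 2 treated clones differed by 0.831, a value from the mean of each clone's duplicates and so not of the same kind.

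**Figure D5:**
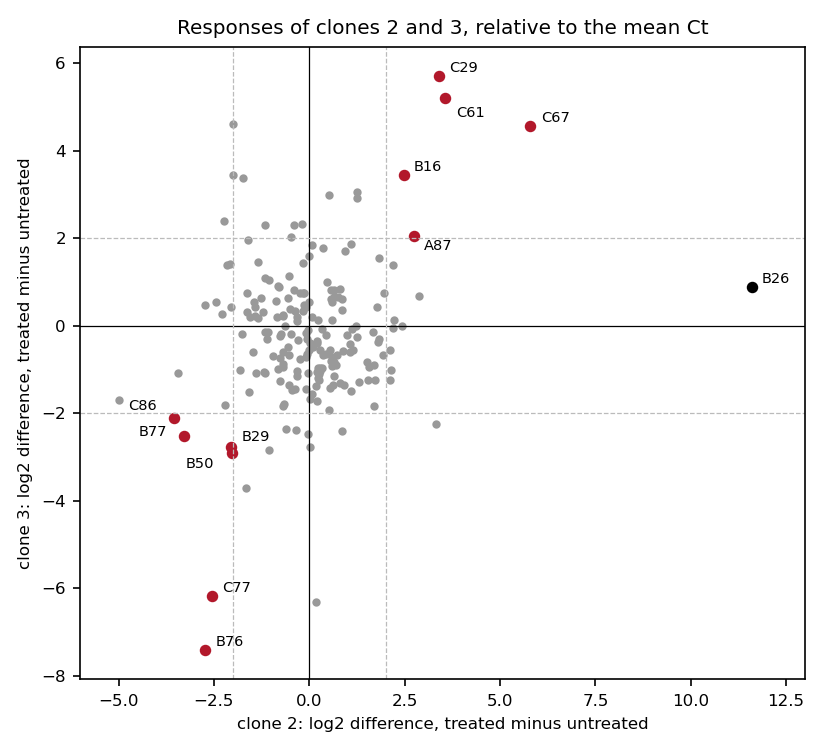
Log2 difference of treated minus untreated iPSC of the same clone, relative to the mean Ct, in clone 2 (horizontal) and clone 3 (vertical) for the 198 assays detected in all 9 samples. Red points are the 11 assays beyond 2 in both clones in the same direction, dashed lines stand at -2 and 2, and the black point, B26, contains a Ct of 2.82. Of the red points, C77 and B76 contain a single Ct of 31.75 and 27.95 in treated clone 3, far from its duplicate.

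A difference between the clones in their response passed at 1 of 284 assays (0.352%), B95, in the fit relative to RNU6, and 8 (2.82%) had an unadjusted p under 0.05, or 73 without replicate 2 of treated clone 3. The contrast sets the treated minus untreated difference of clone 3 against that of clone 2, and each untreated side is 1 sample, so its p-value assumes that this sample varies like the other groups of the fit. B95 had no Ct in either sample of treated clone 2 and 22.12 and 20.28 in treated clone 3, against 22.05, 22.12, 22.93, 20.86 and 21.46 in untreated clones 1 to 5. Untreated clone 2 itself was at 22.12. The clone 3 minus clone 2 difference was 14.48 log2 units (limma adjusted p 0.0410), a size set by the limit of 35 given to the samples without a Ct. The call ended relative to the mean Ct (13.84, adjusted p 0.611), with a limit of 32 cycles (11.48, 0.264), with only iPSC in the fit (14.48, 0.230), and when either replicate 2 of treated clone 2 (13.22, 0.215) or replicate 1 of treated clone 3 (15.02, 0.0743) was left out. C92 likewise had no Ct in treated clone 2, with 26.42 and 26.47 in treated clone 3, against 25.03 to 30.72 in the untreated clones.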

How the data were processed

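MicroRNA levels came from stem-loop RT-qPCR with 5 ng total RNA per reaction and 40 cycles, per the labels' protocols, which name 303 miRNAs and RNU6 as the normalizer. The deposited Ct table, a unit of PCR cycles, holds raw values of 315 positions in 26 samples. Of the 2835 values of the 9 iPSC samples, 269 have no Ct. The table of fold changes the authors deposited has log2 units and holds, by its values, untreated minus treated mean normalized Ct. The labels give activin as 100 ng/ml in the treatment protocol and in another unit in the sample characteristics. How Ct values were called is not given in the sources at hand.

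The RNU6 Ct of 20 samples was recovered by least squares from both tables (largest residual 4e-09 cycles). The mean-Ct reference used assays below 35 in all 26 samples (87 on plates A and B, 26 on C, 9 on D). Values above 35 or missing were set to 35. The 2 samples of a treated clone were averaged, and limma 3.58.1 in R 4.3.3 fitted all groups with the reference together (18 columns with RNU6, 24 with the mean Ct), with Benjamini-Hochberg adjustment over 284 assays. The test of a clone difference kept the samples unaveraged. Single values were tested by exact permutation. Scripts were tested on simulated data. Python 3.11.15, numpy 2.4.6, pandas 2.3.3, scipy 1.17.1 and matplotlib 3.10.9 were used.

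The comparison, lists and tests were chosen with earlier results of these data known. Assays were named by a rule: the 10 highest and 10 lowest log2 fold changes relative to the mean Ct where the higher group detected the assay in every sample, every call, the 5 smallest p-values per reference, those detected in all 4 treated and at most 1 untreated sample or the reverse, and the 5 lowest treated mean Ct. Others named were singled out after their values were seen. Clone identity, from the labels, pairs treated with untreated samples of clones 2 and 3, although the clones' deviations correlated at -0.11 across assays. Apart from the clones, the labels do not say which samples are separate cultures, so p-values may measure technical spread.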

Additional observations from a re-analysis of the deposited data

Results flagged for a closer look

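A rule for gaps within a group, run with the limit of 35 in place, flagged single samples at 8 named assays. The gap is one that chance gives in about 1 in 20 groups, a rate that does not hold where values are tied at the limit. At B26 replicate 2 of treated clone 2 had a Ct of 2.82 while the other treated samples had 25.8 to 28.7, and its log2 fold change of 6.52 relative to the mean Ct was 0.18 without that sample. At C84 replicate 2 of treated clone 3 had 17.7 while the others had 29.3 to 31.2. C95 and A93 had no Ct in replicate 1 of treated clone 3 and stood at the limit of 35. Among untreated clones, C25 stood at the limit of 35 in clone 5, A90 was at 33.1 in clone 5, B56 at 34.3 in clone 1 and A75 at 20.6 in clone 5. At A90 and B56 the remaining untreated clones were all tied at the limit of 35, so these 2 flags were set by the limit. The gap at A75 was small, with 21.2 to 21.4 in the remaining untreated clones. At B95 the contrast between the responses of clone 3 and clone 2 relative to RNU6 was 14.48 log2 units, a size set by the limit of 35 for the 2 samples of treated clone 2 without a Ct. Each untreated side is 1 sample, and the call ended in 5 alternatives, with limma adjusted p-values of 0.0743 to 0.611.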

How the results depend on the processing

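Relative to RNU6 the count of calls was 0 and became 2 with a limit of 32 cycles (C29 and C61), 3 with a Ct below 35 required in every iPSC sample (C29, C61 and C67) and 2 with Ct values below 14 as missing. It ranged from 0 to 4 when 1 sample was left out, with 4 (C29, C44, C61 and C67) without replicate 2 of treated clone 3. Relative to the mean Ct the count was 1. It was 0 without a detection filter, with clone as a replicate block, with that block crossed (treated clone 2 with untreated clone 3 and the reverse) and with the mean Ct over all plates. It was 2 with only iPSC in the fit and with a reference of assays detected in all 9 iPSC samples. It was 3 with a limit of 32 cycles, with the filter on every sample, with quantile normalization and with the ESC lines as one group. It was 4 when values beyond the limit were missing and with the 4 treated samples unaveraged, and 11 with the unaveraged samples and clone as a random block. Leaving out 1 sample gave 0 to 5. It was 0 when an untreated clone or the second sample of treated clone 2 was omitted, 2 when the first sample of that clone was, and 5 when replicate 1 of treated clone 3 was. The clone difference called 1 assay, 0 with the mean Ct, a limit of 32, missing values or only iPSC, and 0 to 10 with 1 sample left out. Taken as 4 independent samples, although they are 2 of each clone, the treated cells differed in mean Ct on plates A and B by -1.21 (exact permutation p 0.0159) and in RNU6 on plate D by -1.34 (exact p 0.0476). The RNU6 difference ranged from -0.33 to 0.94 on plates A and B and from -0.58 to 4.80 on plate C with 1 sample left out. A93 reversed to 0.14 with missing values, and ranged from -6.16 to 0.14 with 1 sample left out, and C88 to -0.49 under the block, crossed or not. Relative to RNU6 the list medians were 1.69, 1.66, 1.75 and 1.62. Where not given by construction, the cause was not tested. Crossing, missing low values, RNU6 of plates A and B, and merged ESC lines were chosen after seeing the data. The count at an unadjusted p under 0.05 relative to RNU6, 35, was 72 without replicate 2 of treated clone 2, 80 and 17 when the second and the first sample of treated clone 3 were omitted, 87 with only iPSC in the fit, 54 and 53 with unaveraged samples without and with a random block, 22 with the filter on every sample, 19 with RNU6 of plates A and B, and 14 and 18 under the block and the crossed block. Relative to the mean Ct, 25, it was 12 with the filter on every sample, 44 with the random block and 16 under either block.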
